A study of Mus musculus with 59 samples.

Results

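The maturation of an infarct scar in the mouse left ventricle was measured as the change, between 1 week and 8 weeks after surgery, in how far the infarcted region stood from sham-operated ventricle. For each gene the log2 difference between infarct and sham at 1 week was subtracted from the log2 difference at 8 weeks, and the result is called the shift below. A gene that was high in the young infarct and came back toward sham has a negative shift, and a gene that was low and came back has a positive one. The shift rests on 12 of the 59 arrays of the series, 3 in each of 4 groups, and it was computed for all 6670 genes that gave a measurable signal. The infarct groups are pieces of left ventricle taken below the left anterior descending artery, toward the apex, from mice with a myocardial infarction. The sham groups are pieces of upper left ventricle from sham-operated mice. The upper sham piece matches the position of the tissue above the infarct, called remote here, and not that of the infarct itself, so position and infarction cannot be told apart within a time point, while the position of each piece is the same at both times. Lower sham tissue was represented by 1 array at 1 week, which enters an alternative only, and lower sham tissue at 8 weeks was not analysed here. The labels used here give no strain, sex, age or genotype for these groups, nor any agent given to them. Arrays carry a number in their titles. Values of a group's 3 arrays are always given in the order of that number, and the arrays are called A, B and C in that order. Young and old infarct mean the infarct groups at 1 week and 8 weeks. The labels do not say that each number is 1 mouse, so the p-values measure the spread between arrays. For each gene that spread was pooled over the 23 groups of all 59 arrays. The p-values and standard errors therefore do not follow the spread of the 3 arrays shown for a group. A difference from sham has the same standard error at both times, also where the arrays of 1 group spread more widely.

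After an infarction, dead cardiomyocytes are cleared by neutrophils and macrophages, and fibroblasts divide, turn into contractile myofibroblasts and lay down collagen. In the following weeks inflammatory cells leave, the collagen is crosslinked and the scar becomes a less cellular, more tendon-like tissue. Surviving muscle at its border and in the wall around it enlarges. Healthy adult heart muscle depends on fatty acid oxidation for most of its energy.

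All values are intensities from Affymetrix arrays, on which the brightness of a probe set follows the amount of transcript that binds it, and levels are not compared between genes. Whether a probe set also binds transcripts of related genes was not tested. The arrays had median intensities between 156.9 and 214.35. Within groups, log2 values correlated between 0.981 and 0.986 for sham at 1 week, 0.976 and 0.98 for sham at 8 weeks, 0.962 and 0.984 for infarct at 1 week, and 0.923 and 0.968 for infarct at 8 weeks, the widest spread of the 4. At 8 weeks old infarct array A was the nearest to sham and array C the farthest: among the 765 genes higher in infarct than sham at that time, A was the lowest of the 3 arrays for 76.9% and C the highest for 76.9%. At 1 week young infarct array C was the farthest from sham, being the highest of the 3 for 57.9% of the 2325 higher genes and the lowest for 60.8% of the 1711 lower ones.

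Marker genes of cell types showed what the pieces held. The summed intensity of 39 cardiomyocyte markers was 404686 to 453972 in the sham arrays at 1 week and 57878 to 172734 in the infarct arrays, with young array C at the bottom. At 8 weeks it was 439586 to 452283 in sham and 286668 to 395210 in the infarct, so every later infarct piece gave a higher sum than every early one. The 36 macrophage markers summed to 30022 to 34569 in sham and 116265 to 128350 in the infarct at 1 week, against 30171 to 31892 and 34452 to 55828 at 8 weeks. The 24 fibroblast markers, Col1a1, Col1a2, Col3a1 and Postn among them, summed to 92615 to 106238 in the infarct at 1 week. At 8 weeks they summed to 49162 to 98417, with sham between 35781 and 41035 at 8 weeks and between 39364 and 41017 at 1 week. Remote tissue at 1 week gave fibroblast sums of 90935 to 110714, as high as the infarct. Its macrophage sums were 72640 to 101172 and its cardiomyocyte sums 301787 to 380599. At 8 weeks the remote fibroblast sums were 44931 to 60756 and the macrophage sums 32413 to 40807. In such bulk samples fewer cells of a type and less RNA per cell cannot be told apart, and how far the share of surviving muscle in a piece sets each result below was not tested.

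**Figure D1:**
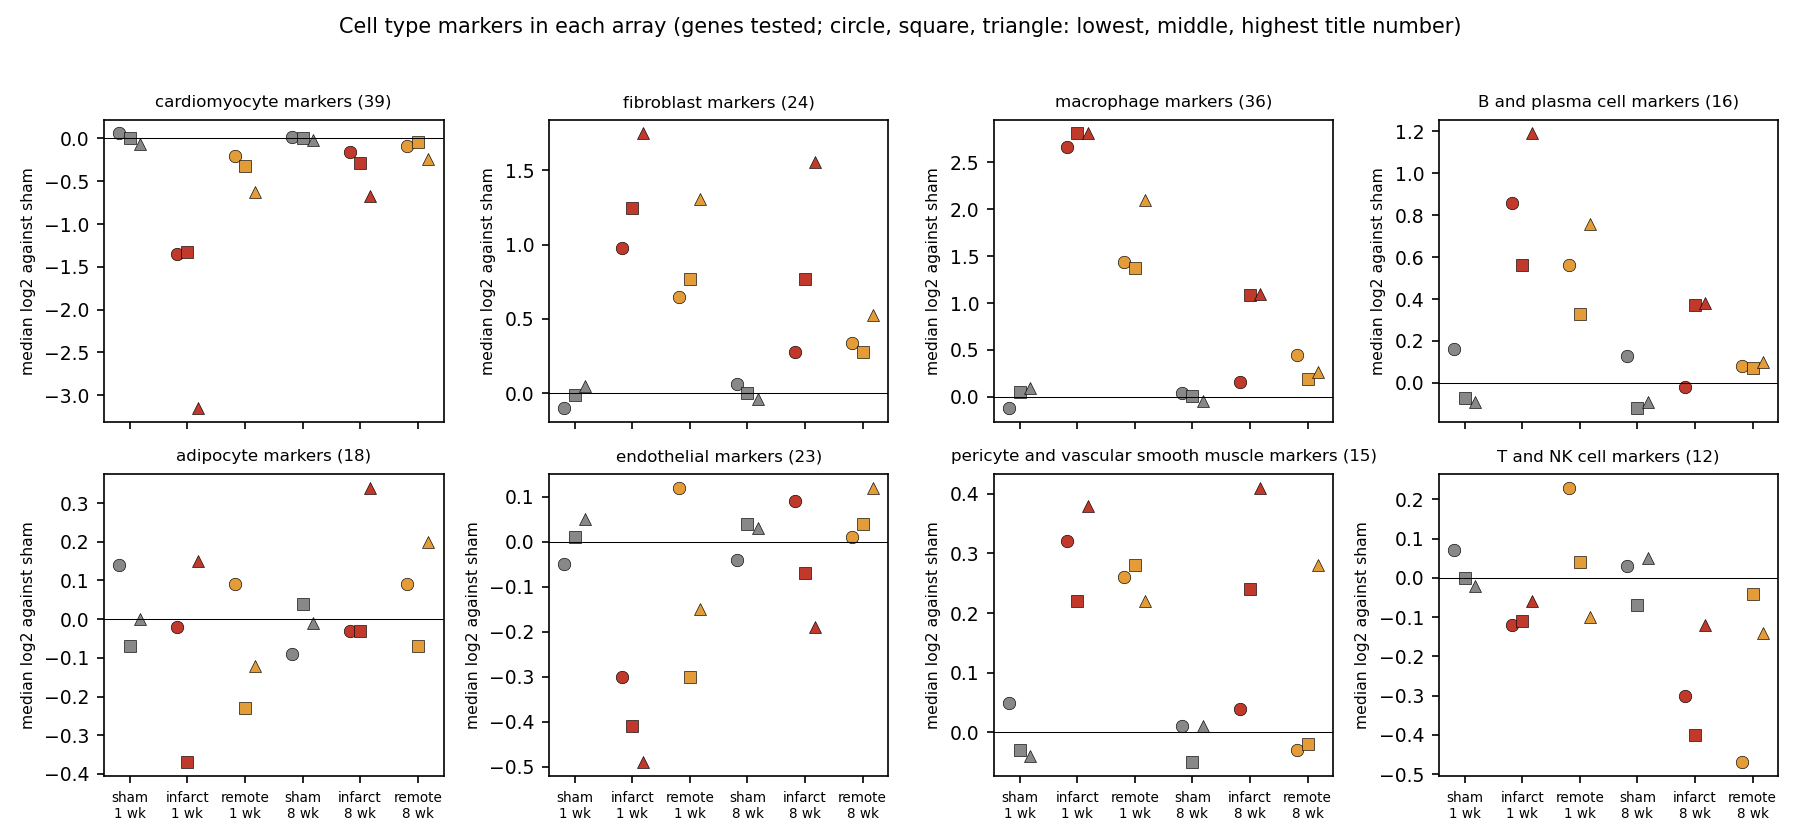
Median log2 difference from the mean of the sham arrays of the same time, for the genes of 8 cell type marker lists. Every sham, infarct and remote array at 1 week and 8 weeks is shown. Each point is 1 array. The macrophage points of the infarct lie between 2.66 and 2.81 at 1 week and between 0.16 and 1.1 at 8 weeks. The cardiomyocyte points of the infarct lie between -3.15 and -1.33 and between -0.67 and -0.16.

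The shift passed an adjusted p of 0.05 for 2455 of 6670 genes (36.8%), of which 1105 (16.6%) were positive and 1350 (20.2%) negative. It was 2-fold or larger for 560 genes upward (8.40% of those tested) and 686 downward (10.3%). The standing difference from sham was called for 4036 genes (60.5%) at 1 week and 1409 (21.1%) at 8 weeks. At 1 week 34.9% of all genes were higher and 25.7% lower than sham, and at 8 weeks 11.5% and 9.66%. A 2-fold or larger difference was called for 1080 genes higher (16.2%) and 764 lower (11.5%) at 1 week, and for 208 higher (3.12%) and 37 lower (0.555%) at 8 weeks. Since the shift subtracts the 1-week difference, a large early difference and a shift toward sham share arrays, and the sorting of genes that follows is a description.

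For 1648 genes (24.7%) the early difference passed, the shift toward sham passed and no difference passed at 8 weeks; 934 of them had been high and 714 low. Another 678 genes (10.2%) moved toward sham but were still called at 8 weeks, 336 on the high side and 342 on the low side. A further 508 (7.62%) were called in the same direction at both times with no call for the shift, 335 high and 173 low. In 55 genes (0.825%) a difference was called at 8 weeks and not at 1 week and the shift passed, and in 19 genes (0.285%) the sign turned over. The median shift over all genes was -0.136 on the log2 scale. With the arrays quantile normalized that median was 0.011, and the positive share of the calls went from 45% to 54.9%, so the balance of positive and negative calls is not fixed by these data.

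**Figure D2:**
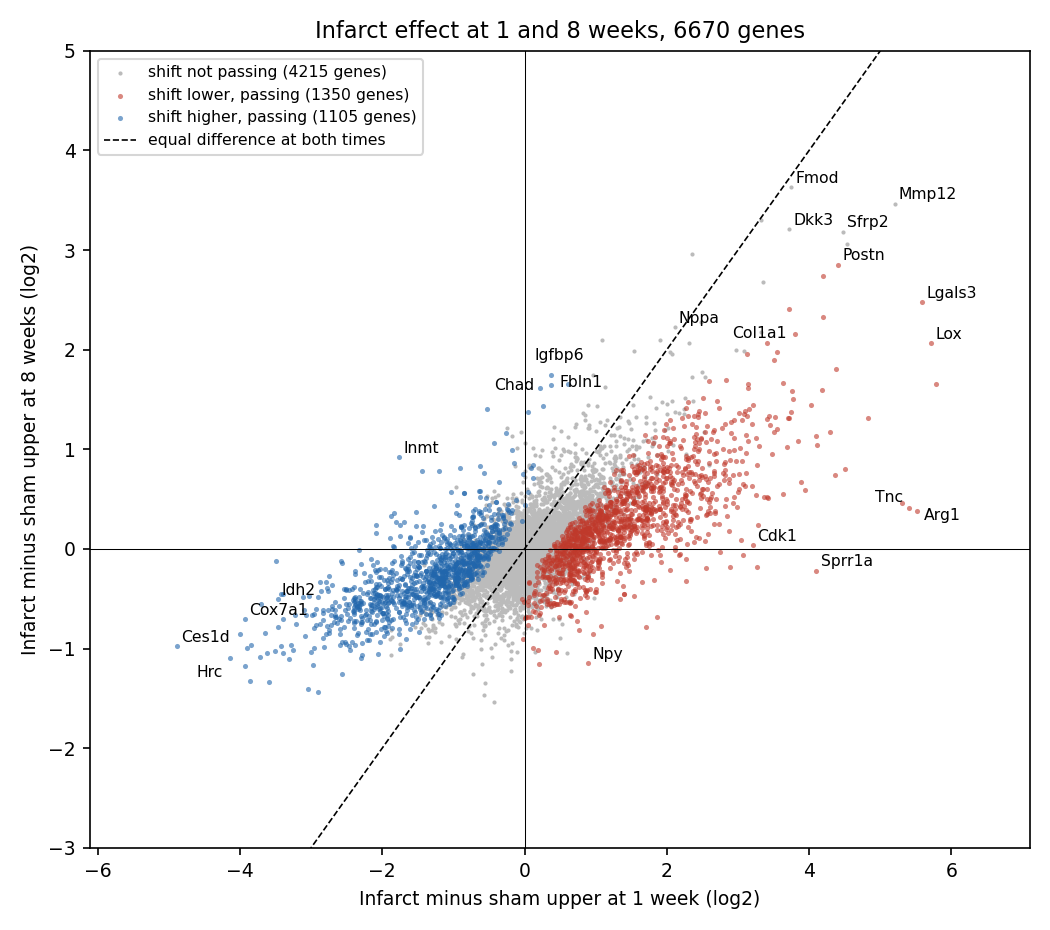
Log2 difference between infarct and sham at 8 weeks (vertical) against that at 1 week (horizontal), 1 point per gene, coloured by whether the shift passed and in which direction. Both axes use the same 6 sham and 6 infarct arrays that give the shift. Genes on the diagonal have a shift of 0; Tnc and Arg1 lie far to the right near 0 on the vertical axis, and Fmod and Mmp12 lie high on both axes.

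The steepest falls in the data come first. The shift passed, with the sham-corrected infarct arrays of the 2 times not overlapping, for 1315 genes downward (19.7%) and 1068 upward (16.0%), and the steepest of these are named. Tnc encodes tenascin C, a matricellular protein laid down in fresh wounds. Its intensity was 48.2, 38.3 and 14.6 in sham and 2768, 4095 and 3004 in infarct at 1 week, and 60, 62.3 and 108 in sham and 53.7, 130.1 and 190.2 in infarct at 8 weeks. All 3 young infarct arrays lay far above every other array, while at 8 weeks old array A was below all 3 sham arrays. The shift was -4.99 ± 0.50 (adjusted p = 2.4e-09), where ± marks the standard error here and for every log2 value below. Arg1, arginase 1 of wound macrophages, measured 2397, 3376 and 1733 in the infarct at 1 week and 8.3, 51.6 and 92.1 at 8 weeks, with sham never above 52.3, and its shift was -5.14 ± 0.86 (adjusted p = 9.7e-06). The infarct arrays of the 2 times did not overlap, and at 8 weeks Arg1 was at or below the range of sham except on array C. Adam8, a membrane metalloprotease of leukocytes, went from 2690.1 ± 106 (SD, n = 3, as for each ± on an intensity) in the infarct at 1 week to 62.4 ± 51.6 at 8 weeks, with a shift of -4.85 ± 0.59 (adjusted p = 6.1e-08). Of the other 9 of the 12 steepest falls among genes whose infarct arrays separated, Saa3, an acute-phase serum amyloid, shifted by -4.12 ± 1.05 (adjusted p = 0.0018). Sprr1a, a stress-induced small proline-rich protein, shifted by -4.32 ± 0.39, and Serpinb2, an inhibitor of plasminogen activators, by -3.46 ± 0.68. Plac8 shifted by -3.62 ± 0.71 and C1qtnf3, a secreted protein of the adiponectin-related family, by -3.22 ± 0.38, and Lox, Clec4d, Col11a1 and Ccn4 are described with their groups.

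Fibrillar collagens are the tensile fibres of the scar. Of 7 such chains tested, 5 had a negative shift, which 20.2% of all genes had, and 0 a positive one. The median difference from sham went from 3.14 at 1 week to 1.65 at 8 weeks, against medians of 0.11 and -0.005 over all genes. Col1a2, a chain of type I collagen, read 978, 1028 and 1348 in sham and 12769, 12994 and 14527 in infarct at 1 week, then 925, 1002 and 979 in sham and 1777, 4359.6 and 7836 in infarct at 8 weeks. The 8-week infarct arrays lay between sham and the young infarct without touching either, and they were spread widely. The shift was -1.57 ± 0.46 (adjusted p = 0.0059), and the difference left at 8 weeks was 1.97 ± 0.32 (adjusted p = 3.8e-05). Col3a1, the chain of the thinner type III fibres, had a shift of -1.49 ± 0.46 (adjusted p = 0.01) with 1.65 ± 0.33 left, and Col5a2, a type V chain that sets fibre diameter, had -1.86 ± 0.52 (adjusted p = 0.0041) with 2.33 ± 0.37 left.

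Type V and type XI chains nucleate fibres. Col5a1 went from 4536, 5056 and 6218 in the infarct at 1 week to 889, 1244 and 2051 at 8 weeks, with sham at 627, 609.9 and 874 at 1 week and 922, 884 and 946 at 8 weeks. Its shift was -2.33 ± 0.29 (adjusted p = 6.6e-08), and the 8-week difference of 0.50 ± 0.20 did not pass (adjusted p = 0.07), array A lying inside the sham range. Col11a1 went from 2489 ± 1197 to 529 ± 464 and shifted by -3.51 ± 0.58 (adjusted p = 7.6e-06). Col1a1, the other chain of type I collagen, read 13833, 15394 and 15131 at 1 week and 2508, 7288 and 11928 at 8 weeks. Its shift of -1.10 ± 0.52 (adjusted p = 0.092) did not pass although the infarct arrays did not overlap, and its difference at 8 weeks was still 1.99 ± 0.36 (adjusted p = 1.6e-04). The shift of Col1a1 did pass in 5 of 23 alternative settings, among them without old array C. With old array A and young array C both left out, a setting chosen after the data were seen, 2 of the 7 chains kept a called shift, and the calls of Col1a2, Col3a1 and Col5a2 were lost. Without old array A alone 3 chains were called, and the shifts of Col1a2 (-1.02, adjusted p = 0.057) and Col3a1 (-1.07, adjusted p = 0.072) fell short. A second, dimmer Col1a1 probe set gave a shift of -0.86 that passed in the fit over all probe sets (adjusted p = 0.014). Dimmer Col3a1 probe sets gave larger shifts than the first in that fit, -3.28 (adjusted p = 5.9e-05) and -2.44 (adjusted p = 2.1e-06). A second, dimmer Col1a2 probe set did not follow the first: its shift was -0.04 (adjusted p = 0.92), and its infarct differences from sham were -0.55 at 1 week and -0.59 at 8 weeks.

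Collagen must be hydroxylated, trimmed and crosslinked before it bears load. In the list of these enzymes 8 of 12 had a negative shift and 0 a positive one, and the median difference went from 1.29 to 0.36. Lox, lysyl oxidase, which oxidises lysines so that chains crosslink, read 46.3, 63.5 and 77.9 in sham and 5329, 4752 and 6885 in infarct at 1 week, and 46.4, 13.5 and 102 in sham and 91.9, 375 and 976 in infarct at 8 weeks. The old infarct arrays lay at or above the sham range, array A inside it and array C the highest by far. The shift was -3.65 ± 0.57 (adjusted p = 3.1e-06) and the remaining difference 2.07 ± 0.40 (adjusted p = 3.3e-04). Its relative Loxl1, which acts on elastic fibres, read 654 ± 42.5 in the infarct at 1 week and 337 ± 117 at 8 weeks, while sham went from 155 ± 28 to 269 ± 29.4. The shift of -1.57 ± 0.23 (adjusted p = 1.1e-06) was thus made by a log2 change of -0.91 ± 0.16 in the infarct together with one of 0.65 ± 0.16 (adjusted p = 0.0094) in sham. Bmp1, the protease that cuts off the C-terminal propeptides of collagen, shifted by -1.94 ± 0.31 (adjusted p = 4.5e-06), and Plod3, a lysyl hydroxylase, by -1.20 ± 0.23 (adjusted p = 7.7e-05), where dimmer probe sets gave -0.19 (adjusted p = 0.67) and -0.89 (adjusted p = 0.002).

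Matricellular proteins sit in the matrix and signal to cells rather than carry load. Of 18 tested, 9 had a negative shift and 2 a positive one, and 10 were above sham at 8 weeks, as 11.5% of all genes were. Postn, periostin of activated fibroblasts, read 12303, 10799 and 12636 in the infarct at 1 week and 3162, 5962 and 7333 at 8 weeks, with sham between 439.4 and 753.7 at both times. The 2 infarct groups did not overlap, yet the lowest old infarct array was still several times the highest sham array. The shift was -1.55 ± 0.39 (adjusted p = 0.0017). Fn1, fibronectin of the provisional matrix, shifted by -1.09 ± 0.25 (adjusted p = 6.9e-04) with 0.76 ± 0.18 left, and Sparc, a collagen-binding glycoprotein, by -1.10 ± 0.31 (adjusted p = 0.0043) with 1.26 ± 0.22 left. Ccn4, a Wnt-induced member of the CCN family, shifted by -3.36 ± 0.35 (adjusted p = 3.0e-09), and Tgfbi, a protein that links collagen to integrins, by -2.15 ± 0.36 (adjusted p = 1.2e-05). With old array A and young array C both left out 6 of these 11 calls were made, and that of Sparc was lost.

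**Figure D3:**
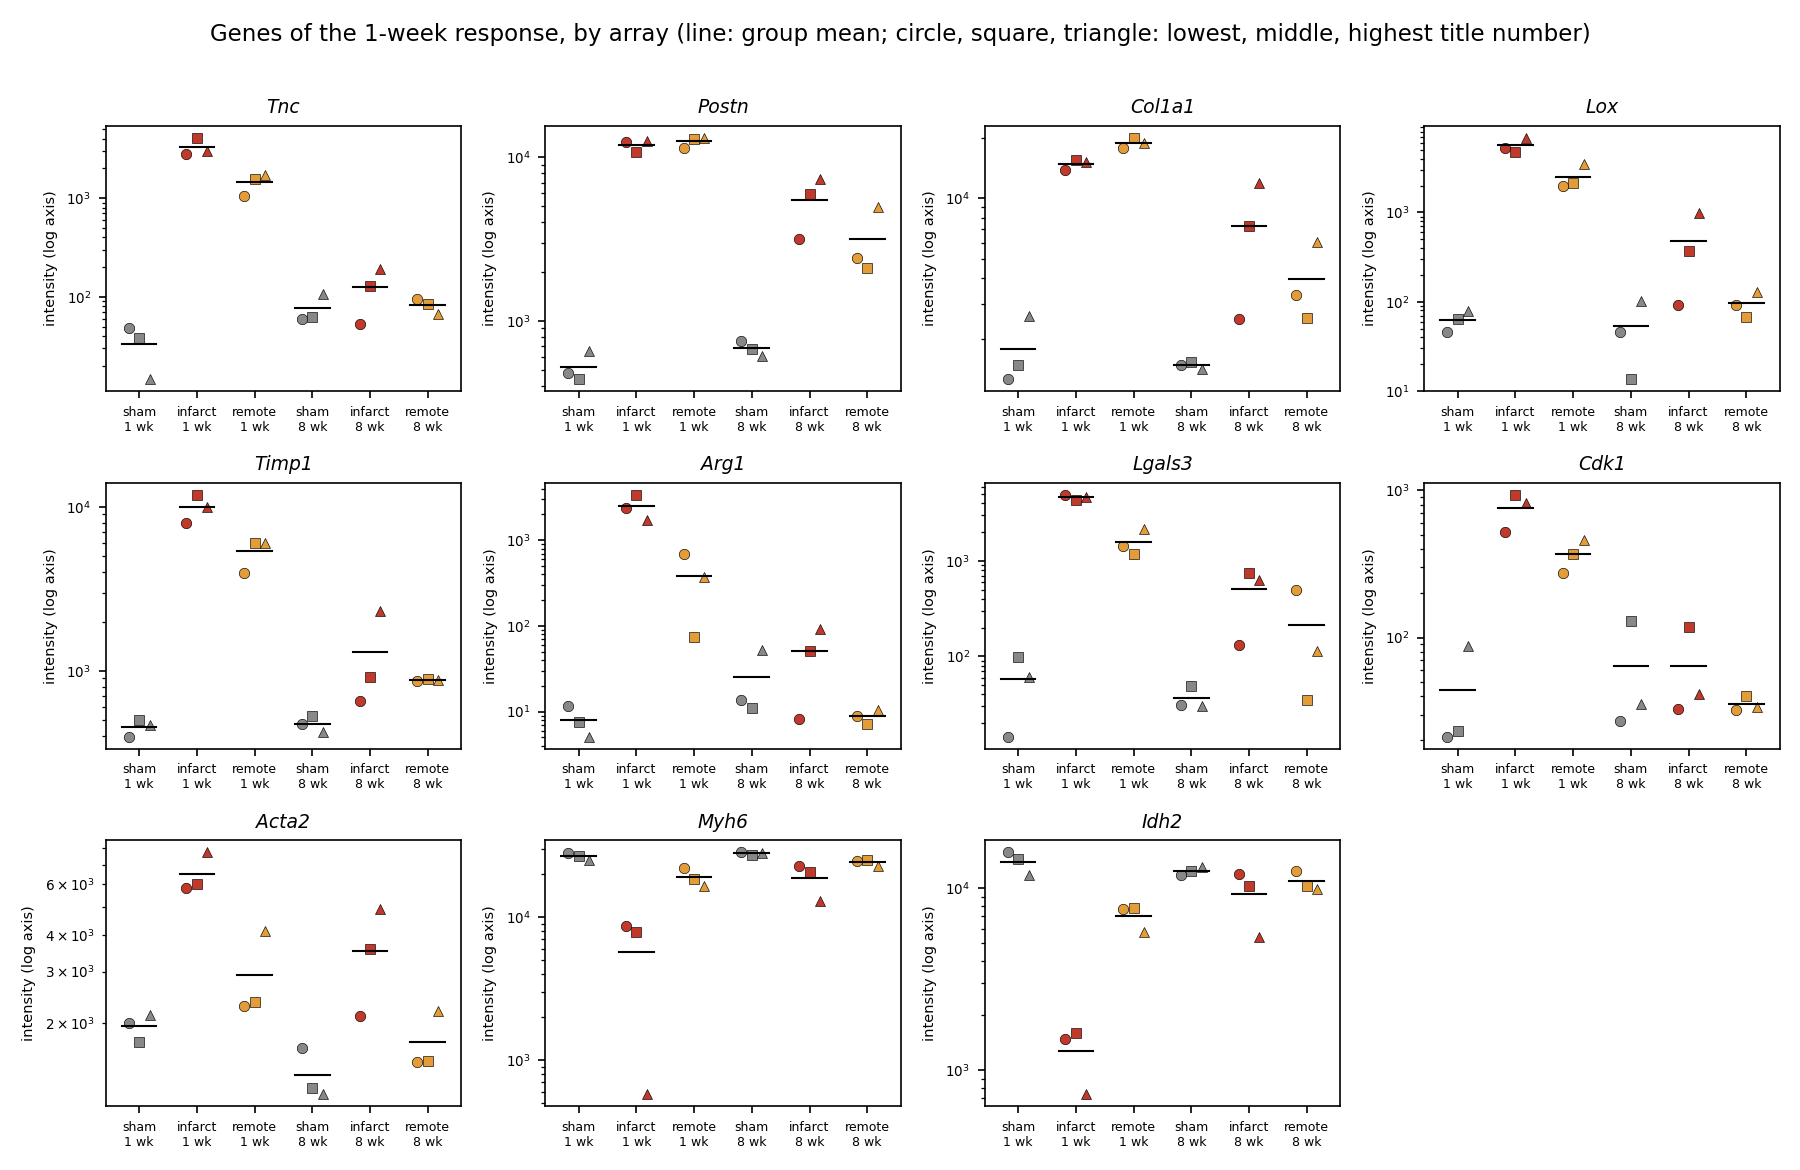
Intensity (log axis) of 11 genes in each sham, infarct and remote array at 1 week and 8 weeks. Symbols mark the array with the lowest, middle and highest title number of each group and lines the group means. Tnc, Arg1 and Cdk1 come down to or near the sham range by 8 weeks, Postn, Col1a1 and Lgals3 stay above it, and Myh6 and Idh2 are lowest in the infarct at 1 week.

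Small leucine-rich proteoglycans bind collagen and set how fibrils pack. The list of proteoglycans and elastic fibre genes had 7 negative and 3 positive shifts among 22 tested, against 20.2% and 16.6% of all genes. At 8 weeks 13 members were above sham, as 11.5% of all genes were. Vcan, versican of provisional matrix, shifted by -1.48 ± 0.30 (adjusted p = 1.5e-04), Mfap2, a microfibril protein, by -2.23 ± 0.27 (adjusted p = 6.4e-08) and Fbln2, a fibulin of developing matrix, by -1.07 ± 0.20 (adjusted p = 6.2e-05). Lum, lumican, had 1.81 ± 0.25 at 1 week and 1.26 ± 0.25 at 8 weeks, and its shift did not pass (-0.55 ± 0.35, adjusted p = 0.22). Dcn, decorin, went the other way, with 14706, 15344 and 13867 in sham and 11027, 11414 and 12533 in infarct at 1 week, and 16839, 16351 and 13532 in sham and 15418, 17064 and 17644 in infarct at 8 weeks. It was lower in all 3 young infarct arrays than in any sham array of that time and overlapped with sham later. Its shift was 0.43 ± 0.15 (adjusted p = 0.022), a call lost in 6 of the alternative settings, among them without young array A (0.4, adjusted p = 0.051), sham array B at 1 week (0.4, adjusted p = 0.054) or sham array C at 8 weeks (0.34, adjusted p = 0.095). Gpc1, a cell-surface heparan sulfate proteoglycan, also rose, by 1.71 ± 0.23 (adjusted p = 2.1e-07).

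Basement membrane genes were divided: of 20, 9 shifted down and 3 up, against 20.2% and 16.6% of all genes. Their median difference from sham went from 0.79 to 0.37, and 6 of the 12 calls were made without old array A and young array C. Of 16 cartilage and tendon genes 5 shifted down and 1 up, near the 36.8% of all genes called in either direction, with 3 calls left without sham array C at 1 week. The 1 that rose was Chad, described with the late genes.

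Matrix proteases and their inhibitors showed 12 negative shifts and 0 positive ones among 21, and 8 were higher than sham at 8 weeks. Timp1, the inducible inhibitor of metalloproteases, read 7981, 11798 and 9985 in the infarct at 1 week and 657, 924 and 2314 at 8 weeks, with sham between 397.6 and 530 at both times. All old infarct arrays stayed above sham and far below the young ones. The shift was -3.13 ± 0.51 (adjusted p = 7.4e-06). Ctsk, cathepsin K, a collagen-degrading lysosomal protease, shifted by -1.96 ± 0.29 (adjusted p = 1.5e-06) with 0.85 ± 0.21 left. Plaur, the urokinase receptor, shifted by -2.70 ± 0.35 (adjusted p = 1.8e-07) and Adam12, a fibroblast metalloprotease, by -3.08 ± 0.40 (adjusted p = 1.9e-07). In this list 9 of the 21 genes had no call for the shift. Mmp12, macrophage elastase, read 3025, 2318 and 3835 in the infarct at 1 week and 851, 1819.9 and 1356 at 8 weeks, with sham at most 85.1. All old infarct arrays lay below the young ones, but the shift of -1.74 ± 0.85 (adjusted p = 0.11) did not pass. It did pass in 1 of 23 alternative settings. A second Mmp12 probe set gave a shift of -2.08 (adjusted p = 0.042).

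Myofibroblasts are fibroblasts with smooth muscle contractile proteins. Of 18 such genes 10 shifted down and 2 up. Tagln, transgelin, an actin-binding protein of smooth muscle, read 776, 658 and 633 in sham and 3785, 4909.9 and 5727 in infarct at 1 week, and 765, 667 and 709.5 in sham and 571, 1009.5 and 2449 in infarct at 8 weeks. The young infarct arrays were all far above the rest, and at 8 weeks array A lay below sham while C lay above it. The shift was -2.08 ± 0.37 (adjusted p = 2.6e-05). Tpm4, a tropomyosin of non-muscle filaments, shifted by -1.32 ± 0.21 (adjusted p = 5.0e-06), Actg2, smooth muscle gamma-actin, by -1.17 ± 0.20 (adjusted p = 1.7e-05), and Fap, a surface protease of activated fibroblasts, by -1.37 ± 0.26 (adjusted p = 7.0e-05). Acta2, smooth muscle alpha-actin, the usual marker of these cells, read 6506 ± 1057 at 1 week and 3544 ± 1405 at 8 weeks in the infarct, and 1943 ± 209 and 1326 ± 277 in sham. Its shift did not pass (-0.39 ± 0.37, adjusted p = 0.44), with differences from sham of 1.71 ± 0.26 and 1.33 ± 0.26.

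Transforming growth factor beta drives the myofibroblast state. Of 36 genes of its family and signalling 10 shifted down and 2 up, so 12 were called in either direction, a share below the 36.8% of all genes. The ligand genes themselves did not pass in the main fit: the shift was -0.12 ± 0.46 (adjusted p = 0.86) for Tgfb1, -0.74 ± 0.31 (adjusted p = 0.056) for Tgfb2 and -0.45 ± 0.37 (adjusted p = 0.36) for Tgfb3. The shift of Tgfb2 did pass in 6 of 23 alternative settings, with an adjusted p down to 0.0043, and that of Tgfb3 in 1. Whether Tgfb2 is called thus depends on the setting. Tgfb1 remained 1.14 ± 0.32 above sham at 8 weeks and Tgfb3 1.26 ± 0.26. Fstl1, a secreted follistatin-like glycoprotein of fibroblasts, did change, from 6173 ± 1264 in the young infarct to 1166 ± 569 in the old one, with a shift of -2.32 ± 0.34 (adjusted p = 1.2e-06). Inhba, which encodes the activin A subunit, shifted by -1.87 ± 0.35 (adjusted p = 5.8e-05). Fibroblast markers as a list gave 10 negative and 3 positive shifts among 24, against 20.2% and 16.6% of all genes, and 13 were above sham at 8 weeks. S100a4, a calcium-binding protein of migrating fibroblasts and macrophages, had a shift of -2.96 ± 0.43 (adjusted p = 1.1e-06), and Gsn, the actin-severing gelsolin, rose from 3090.2 ± 458 to 11591 ± 1953 in the infarct, a shift of 2.20 ± 0.22 (adjusted p = 2.4e-09).

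Macrophage markers were the immune list with the most calls: 31 of 36 shifted down and 1 up, and their median difference from sham went from 2.64 to 0.82. The 1 upward shift was that of Cd36, a fatty acid transporter that cardiomyocytes and endothelium express too. Cd68, a lysosomal glycoprotein of macrophages, read 234, 266 and 356 in sham and 3601, 3574 and 3623 in infarct at 1 week, and 387, 238 and 259 in sham and 363.3, 773 and 767 in infarct at 8 weeks. The 3 young infarct arrays were nearly equal, and of the old ones B and C stayed above sham while A did not. The shift was -2.52 ± 0.37 (adjusted p = 1.3e-06) and the remaining difference 0.95 ± 0.26 (adjusted p = 0.008). Lgals3, galectin 3 of phagocytic macrophages, shifted by -3.11 ± 0.69 (adjusted p = 4.1e-04) and kept 2.48 ± 0.49. Msr1, a scavenger receptor, shifted by -3.04 ± 0.49 (adjusted p = 4.9e-06), Fcer1g, the common Fc receptor gamma chain, by -2.39 ± 0.31 (adjusted p = 1.4e-07), and Clec4d, a C-type lectin receptor of myeloid cells, by -3.69 ± 0.58 (adjusted p = 3.1e-06). A second, dimmer Fcer1g probe set did not follow the first, with a shift of 0.56 (adjusted p = 0.24). At 8 weeks 20 of the 36 macrophage markers were above sham.

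Of 25 cytokines and chemokines 8 shifted down and 0 up, against 20.2% and 16.6% of all genes, and 5 were called without old array A and young array C. Ccl2, which recruits monocytes, read 2361, 3456 and 1878 in the infarct at 1 week and 152, 154 and 250.2 at 8 weeks, and sham was also lower at the later time, 305, 198 and 319 against 125, 91.1 and 59.3. The shift was -2.25 ± 0.58 (adjusted p = 0.002) and the change in sham alone -1.23 ± 0.41 (adjusted p = 0.048). Ccl7, a related monocyte attractant, shifted by -2.43 ± 0.54 (adjusted p = 4.5e-04). Ccl8, another attractant of monocytes, had 4.53 ± 0.50 at 1 week and 3.06 ± 0.50 at 8 weeks, and its shift of -1.47 ± 0.71 (adjusted p = 0.1) did not pass. That shift did pass in 2 of 23 alternative settings. Complement genes gave 8 negative shifts and 1 positive among 15, led by C3ar1, the receptor of the C3a fragment, at -2.71 ± 0.31 (adjusted p = 1.7e-08). At 8 weeks 7 complement genes were above sham.

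Counts for the other leukocyte lists stand against the 20.2% of all genes with a negative shift, and most are near that share. Neutrophil markers gave 3 negative shifts among 14, B and plasma cell markers 4 among 16, genes of the class II antigen presentation system 4 among 13, and interferon response genes 7 among 32, with 0 positive shifts in each. The neutrophil count was 5 without sham array A at 8 weeks, the class II count 7 without old array C and the interferon count 4 without sham array B at 1 week. Without old array A and young array C, 2 B and plasma cell markers and 3 interferon genes were called. T and NK cell markers gave 0 negative and 1 positive among 12, that of Cd6, a T cell surface receptor, which was 61.3 ± 7.84 in the young infarct and 419 ± 176 in the old one, with sham at 415 ± 28.1 and 597 ± 71.8. The immunoglobulin light chain segment Igkv6-23 read 608, 252 and 5604 at 1 week and 104, 12338 and 497 at 8 weeks. A single array carried most of the signal at each time, young array C and old array B, and the shift was -0.02 ± 1.24 (adjusted p = 0.99).

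Genes of DNA replication and mitosis mark dividing cells. Of 66 tested, 48 had a negative shift and 0 a positive one, and the median difference from sham went from 1.54 to 0.19. At 8 weeks 4 were above sham and 3 below. The promoters of Kif22 and Kif4, which encode mitotic kinesins, are shown. Genes of the cell cycle list moved together, and their promoters often carry the CCAAT box and the TTTGAA element of cell cycle genes. Kif22 and Kif4 were chosen by the p of the shift among called members whose promoter held both motifs. Their matches follow from that choice. Capitals mark the motifs on either strand. Each window runs from 250 bases before to 50 bases after the start of the RefSeq gene in build GRCm38.p6, at chr7:127042371-127042670 on the minus strand for Kif22 and at chrX:100625815-100626114 on the plus strand for Kif4.
Kif22: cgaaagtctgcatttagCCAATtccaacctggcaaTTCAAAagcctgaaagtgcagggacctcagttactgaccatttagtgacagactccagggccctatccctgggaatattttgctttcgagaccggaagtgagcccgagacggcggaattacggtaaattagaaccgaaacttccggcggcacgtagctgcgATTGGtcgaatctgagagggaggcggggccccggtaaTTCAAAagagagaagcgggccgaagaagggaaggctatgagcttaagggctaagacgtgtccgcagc
Kif4: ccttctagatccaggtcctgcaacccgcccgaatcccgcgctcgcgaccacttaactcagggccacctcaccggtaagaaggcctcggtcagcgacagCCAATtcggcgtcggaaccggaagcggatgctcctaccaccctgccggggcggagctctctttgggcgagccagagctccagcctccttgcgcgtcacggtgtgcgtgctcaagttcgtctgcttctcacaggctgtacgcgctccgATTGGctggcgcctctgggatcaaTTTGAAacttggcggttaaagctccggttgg
A window held CCAAT on either strand in 64.8% of the 54 list members with a RefSeq promoter, against 42.5% of 5347 tested genes, and TTTGAA in 48.1% against 15%. Both motifs were present in 40.7% of the members and 6.19% of the tested genes. The motifs do not overlap in their letters, and a match is a description of the window and not of binding.

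Kif22 read 103, 132 and 264 in sham and 975, 1189.5 and 1282 in infarct at 1 week, and 223, 270.4 and 228 in sham and 293, 318 and 341 in infarct at 8 weeks. The young infarct arrays were far higher than all others, and the old ones lay above every sham array by a smaller margin. The shift was -2.22 ± 0.30 (adjusted p = 3.7e-07). Kif4 read 149.6, 258 and 252 in the infarct at 1 week and 60.6, 89.1 and 91.5 at 8 weeks, while sham went from 10.6, 28.1 and 42.9 to 133, 136 and 206. Here the log2 change in sham, 1.49 ± 0.26 (adjusted p = 9.8e-04), was larger in size than that in the infarct, -1.06 ± 0.26, and both enter the shift of -2.55 ± 0.37 (adjusted p = 1.2e-06). Anln, anillin of the cleavage furrow, shifted by -3.08 ± 0.46 (adjusted p = 1.6e-06), Plk4, the kinase that duplicates centrioles, by -2.16 ± 0.32 (adjusted p = 1.4e-06), and Cdk1, the mitotic cyclin-dependent kinase, by -3.16 ± 0.54 (adjusted p = 1.2e-05). Top2a, the topoisomerase of dividing cells, read 302 ± 103 in the infarct at 1 week and 51.3 ± 19.5 at 8 weeks, a shift of -1.70 ± 0.45 (adjusted p = 0.0024).

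Genes that equip a secreting, phagocytic and motile cell had mostly negative shifts. In the secretory pathway and endoplasmic reticulum list 24 of 40 shifted down and 2 up, with medians of 0.93 and 0.22. Ssr2, a subunit of the translocon-associated complex that passes new proteins into the endoplasmic reticulum, went from 1589 ± 193 in the young infarct to 331.8 ± 53.7 in the old one, with sham at 318 ± 24.1 and 267 ± 35.9, a shift of -1.90 ± 0.26 (adjusted p = 4.8e-07). Kdelr3, a receptor that returns escaped chaperones, shifted by -2.38 ± 0.34 (adjusted p = 7.0e-07). In the lysosome list 25 of 41 shifted down and 2 up, led by Gusb, beta-glucuronidase, at -2.17 ± 0.28 (adjusted p = 1.5e-07). Of 32 genes of the actin and microtubule cytoskeleton 23 shifted down and 1 up, and 15 were above sham at 8 weeks. Arpc5, a subunit of the complex that branches actin filaments, shifted by -1.29 ± 0.19 (adjusted p = 1.9e-06) with 0.46 ± 0.14 left, and Tubb6, a beta-tubulin, by -1.77 ± 0.27 (adjusted p = 2.2e-06). Without old array A, 15 cytoskeleton genes were called in place of 24. Cytosolic ribosomal protein genes did not share this: of 28, 4 shifted down and 1 up, against 20.2% and 16.6% of all genes. The share called in either direction was below the 36.8% of all genes. The number of calls went from 2 (without old array B, or with array weights) to 17 (with quantile normalization).

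Muscle genes made up the other side. Of 39 cardiomyocyte markers 32 had a positive shift, which 16.6% of all genes had, and 1 a negative one. The median difference from sham went from -1.86 to -0.39. At 8 weeks 5 were below sham and 2 above. Myh6, the alpha heavy chain of adult mouse myosin, read 27851, 26872 and 25102 in sham and 8651, 7877 and 580.4 in infarct at 1 week, and 28372, 27077 and 28253 in sham and 22832, 20807 and 12908 in infarct at 8 weeks. All young infarct arrays were below all others, young array C by far, and the old ones were all below sham, array C well below it. The shift was 2.32 ± 0.58 (adjusted p = 0.0016) and the 8-week difference did not pass (-0.61 ± 0.41, adjusted p = 0.3). Ckm, muscle creatine kinase, shifted by 3.14 ± 0.48 (adjusted p = 2.1e-06), and Hrc, a calcium-binding protein of the sarcoplasmic reticulum, by 3.05 ± 0.32 (adjusted p = 3.2e-09) with a difference of -1.10 ± 0.22 left at 8 weeks. A second, much dimmer Ckm probe set gave -0.43 (adjusted p = 0.49).

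Sarcomere genes gave 13 positive and 1 negative shifts among 24, and calcium handling genes 13 and 1 among 16. Myom1, which crosslinks thick filaments in the M-band, shifted by 1.96 ± 0.32 (adjusted p = 5.0e-06), and Tnnt2, cardiac troponin T, by 1.23 ± 0.24 (adjusted p = 8.1e-05). Atp2a2, the calcium pump of the sarcoplasmic reticulum, went from 3830 ± 2340.3 in the young infarct to 11997 ± 2543 in the old one, a shift of 2.02 ± 0.36 (adjusted p = 2.9e-05). Smyd1, a methyltransferase needed for sarcomere assembly, shifted by 3.15 ± 0.54 (adjusted p = 1.2e-05), and Mapt, the microtubule protein tau, by 3.37 ± 0.42 (adjusted p = 7.7e-08), where dimmer probe sets gave 2.36 (adjusted p = 4.6e-08) and 0.4 (adjusted p = 0.27). Myh7, the beta heavy chain of fetal and stressed ventricle, did not pass, at 1.59 ± 0.73 (adjusted p = 0.083), with sham array A at 1 week far above the other 2. Its shift did pass in 3 of 23 alternative settings. When the model held the 4 groups of the comparison only, 7 sarcomere genes were called in place of 14 and Myh6 was no longer called.

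Nppa, atrial natriuretic peptide of stretched muscle, read 5024, 5403 and 2541 in the infarct at 1 week and 3065, 7664 and 10554 at 8 weeks against sham values of 814, 848 and 1111 at 1 week and 1377, 1440.4 and 1135 at 8 weeks. The infarct arrays of the 2 times overlapped and all stayed above sham, and the shift was 0.11 ± 0.44 (adjusted p = 0.86). Nppb, the brain-type peptide, had no difference from sham that passed (0.18 ± 0.28 at 1 week and 0.07 ± 0.28 at 8 weeks), while its level in sham rose by 1.02 ± 0.28 (adjusted p = 0.018).

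Genes of energy metabolism shifted upward too. Of 63 oxidative phosphorylation genes 58 shifted up and 0 down, of 23 citric acid cycle genes 20 up and 1 down, and of 30 fatty acid oxidation genes 27 up and 1 down. The median differences from sham went from -2.00 to -0.53, from -2.11 to -0.50 and from -2.46 to -0.74. Many stayed below sham at 8 weeks: 39 of 63, 14 of 23 and 22 of 30, against 9.66% of all genes. Glycolysis genes gave 13 positive and 2 negative shifts among 24, and 10 were below sham at 8 weeks.

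The promoters of Uqcrc1, a core subunit of complex III, and Sdhd, a membrane anchor of complex II, are shown. Oxidative phosphorylation genes moved together, and some carry the motif of nuclear respiratory factor 1. It is read here as GCGCA, any 1 base and GCGC on either strand, and capitals mark it. Uqcrc1 and Sdhd were chosen by the p of the shift among called members whose promoter held this motif. Their matches follow from that choice. The RefSeq windows in GRCm38.p6 are chr9:108936398-108936697 on the plus strand and chr9:50603800-50604099 on the minus strand.
Uqcrc1: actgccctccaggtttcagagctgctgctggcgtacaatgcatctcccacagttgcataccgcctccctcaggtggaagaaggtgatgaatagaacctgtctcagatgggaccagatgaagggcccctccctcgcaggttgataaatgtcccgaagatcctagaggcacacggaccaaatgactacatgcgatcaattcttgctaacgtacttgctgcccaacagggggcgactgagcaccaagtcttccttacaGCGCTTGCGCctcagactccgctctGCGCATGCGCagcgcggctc
Sdhd: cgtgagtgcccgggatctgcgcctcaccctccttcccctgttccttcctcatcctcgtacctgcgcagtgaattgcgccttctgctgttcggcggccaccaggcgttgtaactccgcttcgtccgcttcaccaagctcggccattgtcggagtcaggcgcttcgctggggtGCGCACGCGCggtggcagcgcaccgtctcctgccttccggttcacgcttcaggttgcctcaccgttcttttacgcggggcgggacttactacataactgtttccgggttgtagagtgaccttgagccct
Of 50 list members with a promoter window 24% held this motif on either strand, against 11.2% of the tested genes with a window. The motif AAGGTCA, bound by nuclear receptors such as the estrogen-related receptors, was in 12% of the members and 4.32% of the tested genes.

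Uqcrc1 read 11778, 13933 and 12882 in sham and 2922, 2780.3 and 1753 in infarct at 1 week, and 10563, 10371 and 11088 in sham and 8106, 8748 and 5299.5 in infarct at 8 weeks. Every infarct array was below every sham array at both times, and the old infarct arrays were all above the young ones. The shift was 1.82 ± 0.22 (adjusted p = 4.1e-08) and the remaining deficit -0.56 ± 0.15 (adjusted p = 0.008). Sdhd shifted by 1.52 ± 0.19 (adjusted p = 7.5e-08) with -0.55 ± 0.13 remaining, and Cox7a1, the muscle form of a cytochrome oxidase subunit, by 3.23 ± 0.52 (adjusted p = 5.1e-06). Idh2, mitochondrial isocitrate dehydrogenase, read 1486, 1606 and 741 in the infarct at 1 week and 12036, 10296 and 5412 at 8 weeks, with sham at 15765, 14449.5 and 11759 at 1 week and 11765, 12500.1 and 13017 at 8 weeks. The young infarct arrays were far below all others, and of the old ones array A lay within the sham range and C well below it. The shift was 2.97 ± 0.30 (adjusted p = 2.4e-09). Pdha1, a subunit of pyruvate dehydrogenase, shifted by 1.88 ± 0.19 (adjusted p = 2.8e-09), Echs1, the hydratase of fatty acid oxidation, by 2.41 ± 0.27 (adjusted p = 1.7e-08), and Acadm, which starts the oxidation of medium-chain fatty acids, by 2.14 ± 0.29 (adjusted p = 3.7e-07). The largest positive shift among separated genes was that of Ces1d, a carboxylesterase, which read 16.9, 6.4 and 6.4 in the young infarct and 1184, 486 and 453 in the old one against 1592 ± 159 and 1313 ± 163 in sham, at 3.91 ± 0.42 (adjusted p = 5.2e-09). Slc2a4, the insulin-responsive glucose transporter, shifted by 2.88 ± 0.37 (adjusted p = 1.4e-07) and Pygm, muscle glycogen phosphorylase, by 2.81 ± 0.39 (adjusted p = 4.7e-07). The 12 steepest rises also held Pgam2, the muscle phosphoglycerate mutase, at 2.97 ± 0.42, Cox8b, another muscle cytochrome oxidase subunit, at 2.94 ± 0.38, and Sgca, alpha-sarcoglycan of the muscle membrane, at 2.91 ± 0.37.

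**Figure D4:**
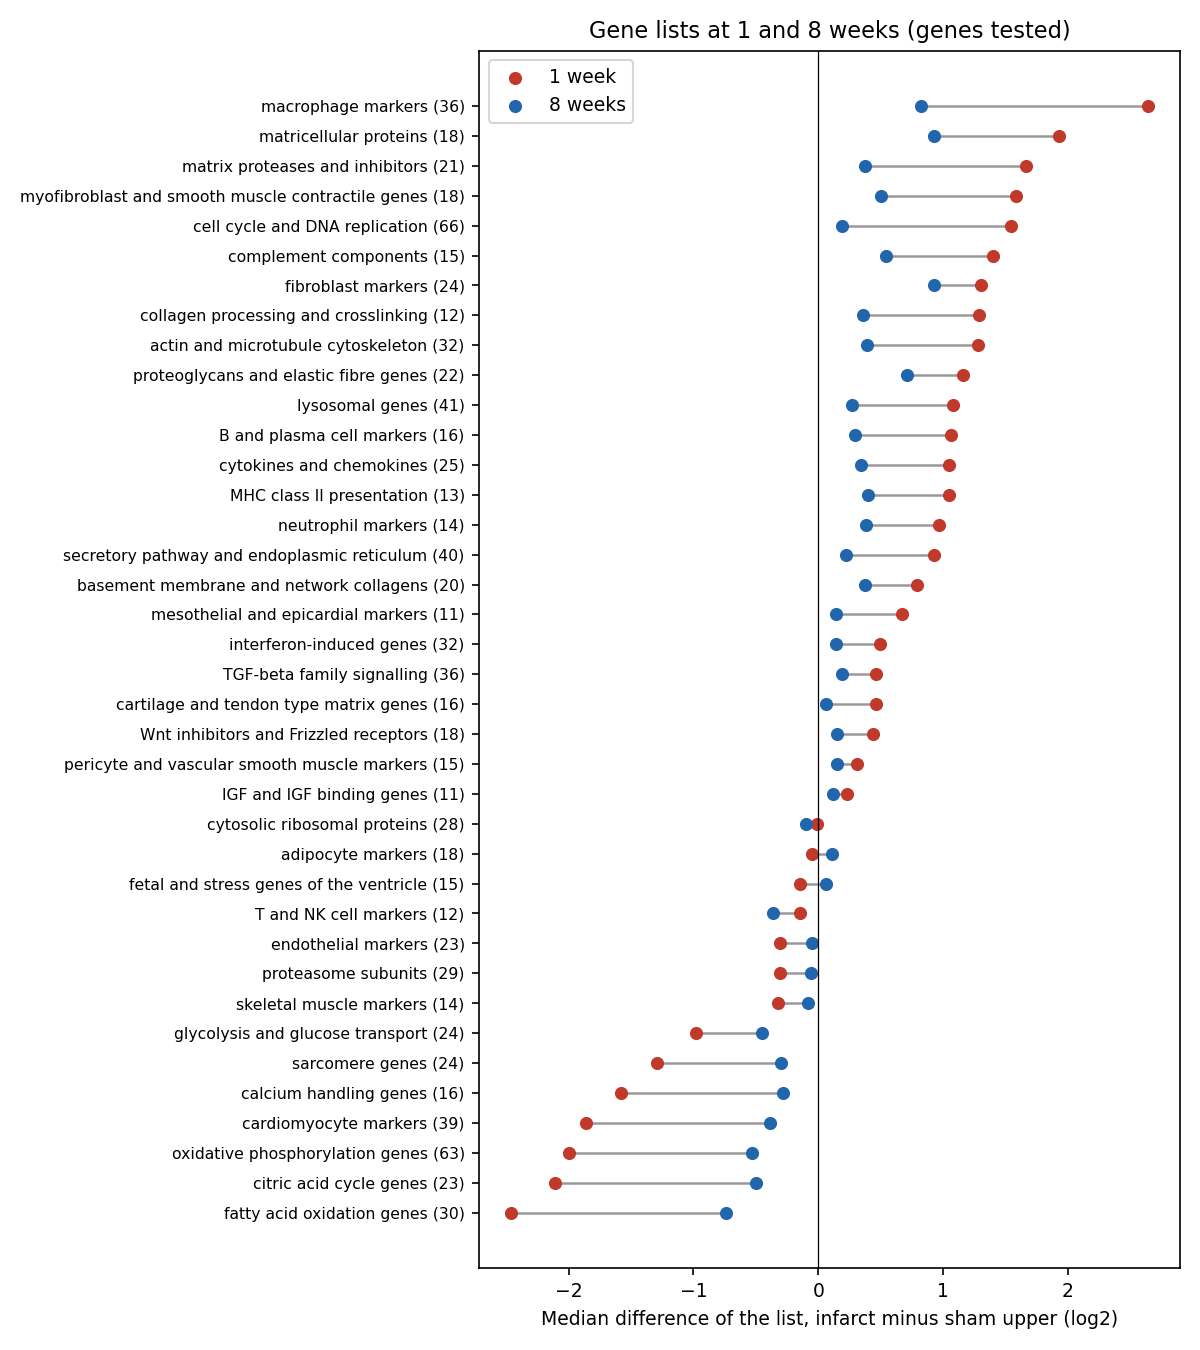
Median log2 difference from sham at 1 week and at 8 weeks for each gene list with 10 or more tested genes, joined by a line. The macrophage list moves from 2.64 to 0.82, the fibrillar collagen list is not shown because it holds 7 genes, and the fatty acid oxidation list moves from -2.46 to -0.74.

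Vessel markers follow. Endothelial markers gave 6 positive shifts and 0 negative ones among 23, against 16.6% and 20.2% over all genes, and their median difference went from -0.31 to -0.05. Flt1, a receptor of vascular endothelial growth factor, read 262, 319 and 158 in the infarct at 1 week and 816, 704 and 409 at 8 weeks, against sham values of 821 ± 52.3 and 763 ± 63.2. The infarct arrays did not overlap between times, and A and B were no longer below the sham range while C was. The shift was 1.33 ± 0.23 (adjusted p = 1.2e-05), and a second probe set gave 0.9 (adjusted p = 0.054). Kdr, the main signalling receptor of the same factor, shifted by 1.10 ± 0.34 (adjusted p = 0.0096), a call lost without old array B (0.81, adjusted p = 0.06) and with the 4 groups only. Pericyte and vascular smooth muscle markers gave 4 positive and 4 negative shifts among 15, against 36.8% of all genes called in either direction. Abcc9, the sulfonylurea receptor of pericytes and of cardiomyocytes, rose by 2.11 ± 0.31 (adjusted p = 1.2e-06), whereas Tagln and Actg2, above, fell.

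Adipocyte markers were 6 up and 2 down among 18, against 16.6% and 20.2% of all genes. Adipoq, the fat hormone adiponectin, read 390.2, 281 and 1571 in the infarct at 1 week and 74.9, 836 and 3442 at 8 weeks, against sham between 45.8 and 113.7. Young array C and old array C were far above the others of their time. Every young infarct array was above every sham array, and old array A was below all 3 sham arrays of its time. The shift was -0.21 ± 1.07 (adjusted p = 0.9). Thrsp, a regulator of fat synthesis, rose by 2.42 ± 0.31 (adjusted p = 1.2e-07). Of 11 mesothelial and epicardial markers 3 shifted down, against 20.2% of all genes, a count of 1 without old array A, old array B or sham array C at 8 weeks and of 5 without old array C. They were led by Aldh1a2, which makes retinoic acid in the activated epicardium, from 267 ± 29.1 in the young infarct to 21.4 ± 11.6 in the old one (-2.29 ± 0.40, adjusted p = 1.6e-05).

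Genes called high at both times with no call for the shift describe what lasted. Fmod, fibromodulin, a collagen-binding proteoglycan of tendon, read 9.1, 12.2 and 10.1 in sham and 505.6, 532 and 1284 in infarct at 1 week, and 24.1, 26.7 and 19.6 in sham and 36.9, 1591 and 4553 in infarct at 8 weeks. Array A was close to sham and the other 2 old arrays were above every young one, so the infarct groups of both times overlapped. The differences from sham were 3.74 ± 0.67 and 3.63 ± 0.67, and the shift was -0.12 ± 0.95 (adjusted p = 0.94). With old array A and young array C left out the shift turned to 1.9 (adjusted p = 0.039), so its direction rests on those arrays. Adipoq and Fmod were both highest on array C at each time, and a part of fat in the Fmod values was not tested.

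Several inhibitors of Wnt signalling were among these genes. Of 18 Wnt inhibitors and Frizzled receptors 3 shifted down and 0 up, a share below the 20.2% of all genes that shifted down, and 5 were above sham at 8 weeks. Without old array C the count of shifts was 5. Sfrp2, a secreted Frizzled-related protein, read 2783, 2947 and 4371 in the infarct at 1 week and 611, 2785 and 6386 at 8 weeks, with sham at 69.7, 114 and 139 at 1 week and 186, 203 and 229.8 at 8 weeks. The old infarct arrays spanned from well below to well above the young ones, all above sham. The shift was -1.29 ± 0.55 (adjusted p = 0.062). It did pass in 5 of 23 alternative settings, among them without old array B or old array C, so its lack of a call depends on the setting. Frzb, of the same family, had 3.35 ± 0.42 at 1 week and 2.68 ± 0.42 at 8 weeks with a shift of -0.67 ± 0.60 (adjusted p = 0.4), and Dkk3, a dickkopf-related secreted protein, had 3.72 ± 0.51 and 3.21 ± 0.51 with a shift of -0.51 ± 0.72 (adjusted p = 0.61). Sfrp1 did shift, by -1.14 ± 0.30 (adjusted p = 0.0024), and kept 1.70 ± 0.21; this call was lost without old array A and young array C. Sfrp4 shifted by -1.43 ± 0.55 (adjusted p = 0.038), a call lost without young array C (-1.12, adjusted p = 0.14), old array A (-1.28, adjusted p = 0.098) or any of several other single arrays. Fzd3, a Frizzled receptor, rose in sham by 0.95 ± 0.20 (adjusted p = 0.0038), and its shift was -1.05 ± 0.29 (adjusted p = 0.0034). A shift that did not pass does not show that a gene stayed at the same level: the intervals of these genes are wide, with standard errors of 0.55 for Sfrp2 and 0.95 for Fmod against a median of 0.252 over all genes.

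Among genes low at both times with no call for the shift, the largest deficits at 8 weeks were near 2-fold. Cryl1, a crystallin-related dehydrogenase, was -0.59 ± 0.26 at 1 week and -1.16 ± 0.26 at 8 weeks, and its level in sham rose by 1.06 ± 0.26 (adjusted p = 0.0079). A second, dimmer Cryl1 probe set disagreed, with differences of 0.84 at 1 week and -0.08 at 8 weeks and a shift of -0.93 that passed (adjusted p = 0.0065). Fbxo6, an F-box protein that recognises glycoproteins, was -0.88 ± 0.21 and -1.09 ± 0.21. Its infarct arrays read 998, 975 and 1109 at 1 week and 1278, 1207 and 1434 at 8 weeks, each below every sham array of its time. Acot1, a cytosolic acyl-CoA thioesterase, was -1.88 ± 0.29 and -1.07 ± 0.29.

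**Figure D5:**
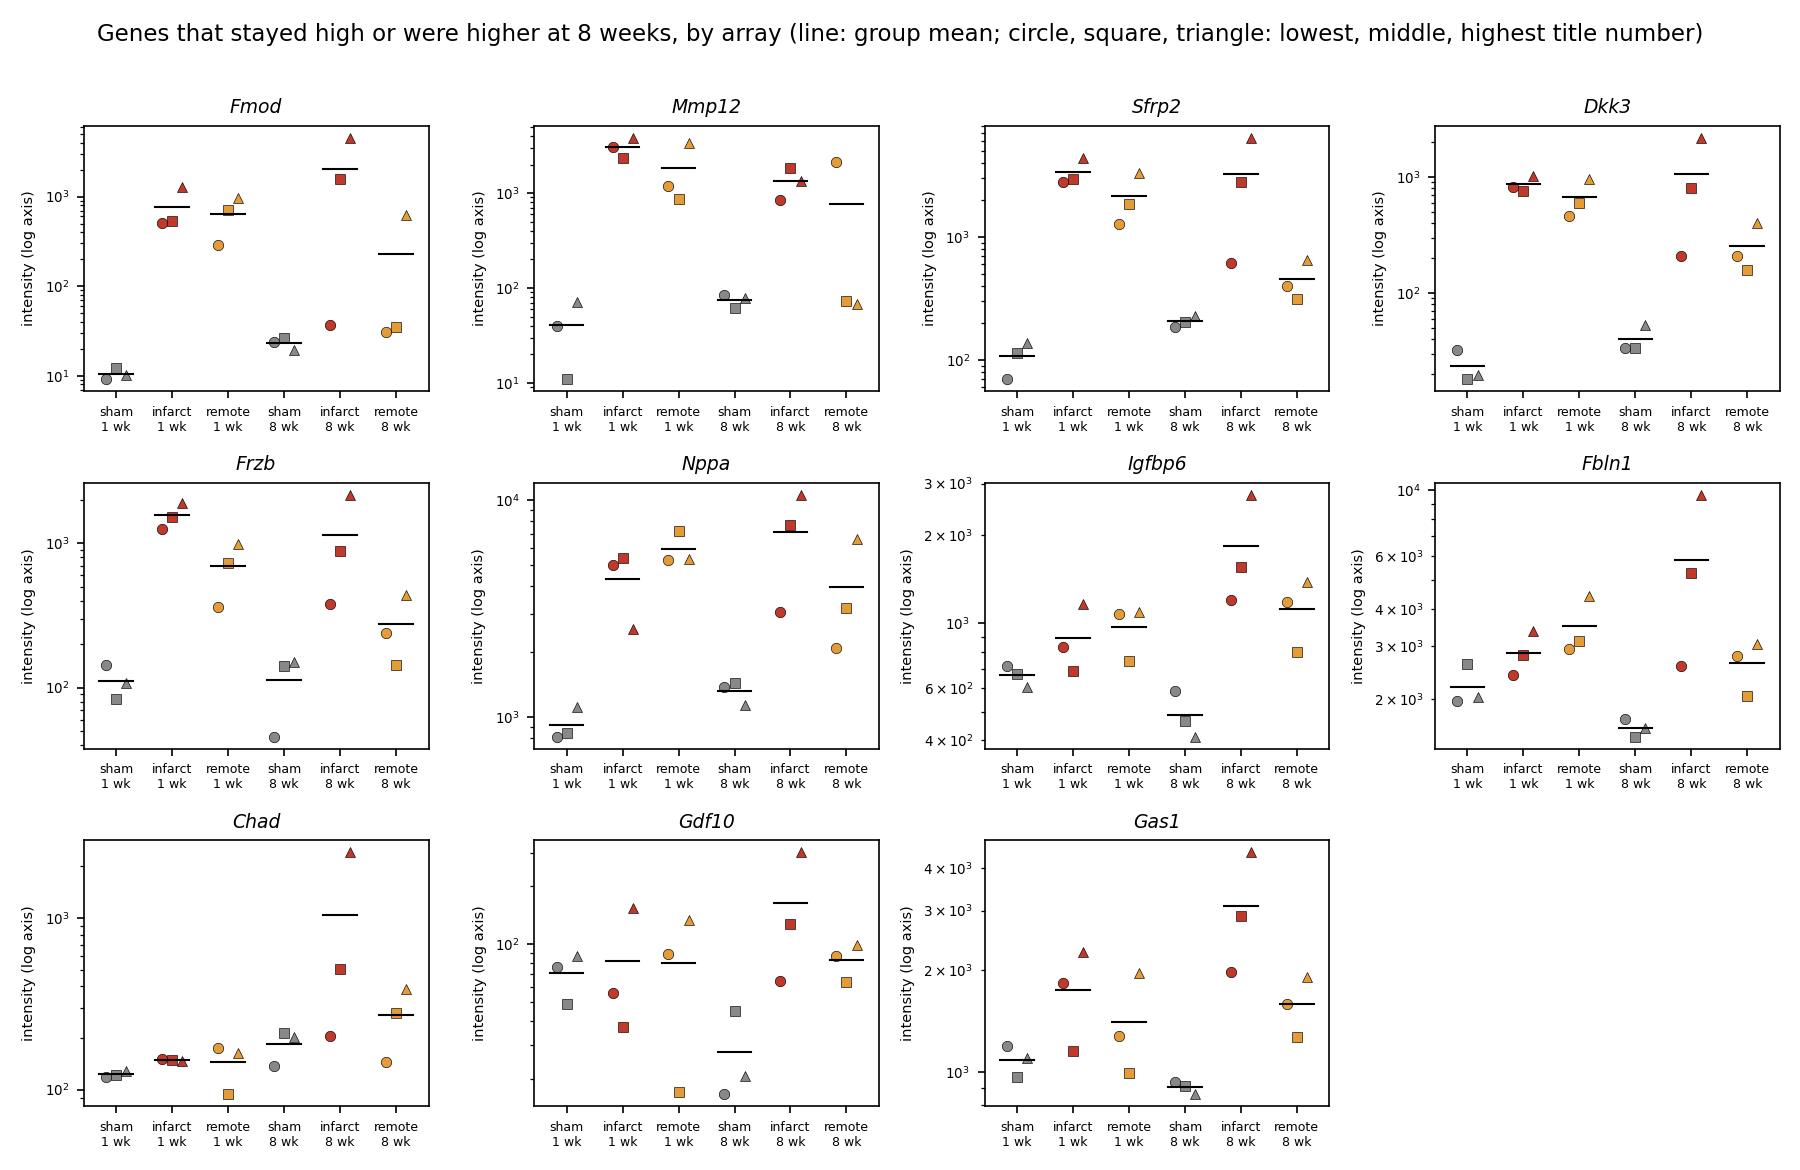
Intensity (log axis) of 11 genes that stayed high or were called at 8 weeks, in each sham, infarct and remote array of both times. Symbols are by title number and lines show group means. Fmod, Sfrp2, Dkk3 and Frzb spread widely over the 3 old infarct arrays, and Igfbp6, Fbln1 and Gas1 have all 3 old infarct arrays above the sham arrays of that time.

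A small set of genes was called in the scar at 8 weeks and not in the infarct at 1 week, with a shift that passed: 23 higher and 32 lower than sham. Igfbp6, a binding protein that prefers insulin-like growth factor 2, read 718, 672.2 and 608 in sham and 829, 688 and 1162 in infarct at 1 week, and 589, 466 and 410.5 in sham and 1201, 1564 and 2743 in infarct at 8 weeks. At 1 week the groups overlapped, and at 8 weeks every infarct array was above every sham array. The shift was 1.38 ± 0.34 (adjusted p = 0.0014), and the 8-week difference 1.75 ± 0.24 (adjusted p = 4.6e-06). Fbln1, fibulin 1 of elastic and basement membrane matrix, read 2402, 2804 and 3373 at 1 week and 2579, 5293 and 9633 at 8 weeks against 2201 ± 357 and 1602 ± 106 in sham, a shift of 1.27 ± 0.33 (adjusted p = 0.0023). Array A overlapped the young infarct arrays and the other 2 were above them all. The call was lost in the fit of the 4 groups only (adjusted p = 0.069). Gas1, a membrane protein linked to growth arrest and hedgehog signalling, was the 1 gene called at both times with a larger difference at 8 weeks, 0.62 ± 0.27 and then 1.66 ± 0.27, with a shift of 1.04 ± 0.38 (adjusted p = 0.028). That call was lost without young array B (0.81), old array C (0.76), sham array A at 1 week (0.97) or sham array C at 8 weeks (1.01).

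Chad, chondroadherin of cartilage, read 206, 504 and 2416 in the old infarct against 137, 214 and 202 in sham, and 152, 149.5 and 148 in the young one. One array, C, stood far above, A was inside the sham range, and the shift of 1.40 ± 0.55 (adjusted p = 0.041) was lost in 13 settings. Without array C it was 0.53 (adjusted p = 0.31); without any of the 3 young arrays, the 3 sham arrays at 1 week, or sham array A or C at 8 weeks it was between 1.25 and 1.46 and did not pass. Sema3b, a secreted semaphorin, shifted by 1.93 ± 0.42 (adjusted p = 3.2e-04), Gdf10, a ligand of the TGF-beta superfamily, by 1.33 ± 0.46 (adjusted p = 0.019), Flt3l, the ligand of the FLT3 receptor, by 1.17 ± 0.33 (adjusted p = 0.0048), and Ephx1, microsomal epoxide hydrolase, by 1.42 ± 0.46 (adjusted p = 0.014). A second, dimmer Sema3b probe set did not follow the first: its shift was -0.06 (adjusted p = 0.92) and its difference at 8 weeks -0.07. The call of Gdf10 was lost without young array B (1.13, adjusted p = 0.064) or old array C (0.9, adjusted p = 0.1), and that of Flt3l without young array C and old array C together (0.8, adjusted p = 0.051). Sham moved too: over the 23 late higher genes the median change was 0.54 in the infarct and -0.43 in sham, and sham at 8 weeks was above sham at 1 week for 1 of the 23. Over the 32 late lower genes the median change was -0.1 in the infarct and 0.72 in sham, with sham higher at 8 weeks for 31 of the 32. Over all 6670 genes sham was higher at 8 weeks for 3691, with a median change of 0.04. Both late sets were sorted with these same sham arrays, so their sham counts are partly set by the sorting. The late lower genes were also dim, with a median intensity of 224.8 against 437.1 for all genes and 671 for the late higher ones.

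In 19 genes the difference was called in opposite directions at the 2 times. The 4 with the smallest adjusted p for the shift, chosen after their values were seen, were all low early and high late. Inmt, an N-methyltransferase, read 198, 211 and 185 in sham and 30.8, 16 and 33.2 in infarct at 1 week, and 209, 229.7 and 177 in sham and 591, 341 and 385 in infarct at 8 weeks. Every young infarct array was below sham and every old one above it. The shift was 2.68 ± 0.40 (adjusted p = 1.4e-06). Cpe, carboxypeptidase E, which trims peptide hormones, read 2784, 2421 and 2563 in the infarct at 1 week and 5666, 5781 and 5613 at 8 weeks, against 4214 ± 158 and 4308 ± 535 in sham, a shift of 1.10 ± 0.18 (adjusted p = 6.1e-06). Zfp91, a zinc finger ubiquitin ligase, shifted by 1.06 ± 0.14 (adjusted p = 3.4e-07) and Ankrd28, a regulatory subunit of protein phosphatase 6, by 1.05 ± 0.17 (adjusted p = 4.9e-06). Zfp91 has other probe sets: one gave 0.26 (adjusted p = 0.23), and one with a mean intensity of 11.4 gave -0.81 (adjusted p = 0.0043), in the other direction.

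A shift can come from either side of the subtraction. The infarct arrays alone differed between the 2 times for 3004 genes (45.0%), and the sham arrays alone for 705 (10.6%), 502 upward (7.53%) and 203 downward (3.04%). Of the 2455 called shifts, 384 (15.6%) had a larger change in sham than in the infarct. Igf1, insulin-like growth factor 1, is 1 gene whose level in sham moved: it read 648, 526 and 665 in sham at 1 week and 1248, 1109 and 1126 at 8 weeks, and 603, 626 and 754 in the infarct at 1 week and 1039, 790.4 and 898 at 8 weeks. Levels were higher at 8 weeks in both kinds of tissue, by 0.88 ± 0.19 in sham and 0.43 ± 0.19 in the infarct, and the shift did not pass (-0.45 ± 0.27, adjusted p = 0.19). A second, dimmer Igf1 probe set gave a shift of -1.99 in the fit over all probe sets (adjusted p = 0.0031), so the probe sets of this gene disagree. The number of genes called in sham depended on single arrays, falling to 160 without sham array C at 8 weeks.

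The remote tissue of the same title numbers gives a second comparison at both times. The shift of infarct against remote passed for 738 genes (11.1%), 407 upward (6.10%) and 331 downward (4.96%). For Tnc the remote arrays read 1049, 1580.4 and 1709 at 1 week and 96.2, 85.6 and 66.7 at 8 weeks, and the shift of infarct against remote, -0.84 ± 0.46 (adjusted p = 0.27), did not pass. Col1a1 read 17665, 19962 and 18720 in remote tissue at 1 week, above all 3 infarct arrays, and 3292, 2552 and 6048 at 8 weeks, and its shift against remote, 1.04 ± 0.48 (adjusted p = 0.16), did not pass either. Remote tissue at 1 week was therefore between sham and infarct for Tnc and above the infarct for Col1a1. The shift of Arg1 against remote was -2.16 ± 0.79 (adjusted p = 0.071), short of the threshold, while Adam8 passed at -1.84 ± 0.55 (adjusted p = 0.023) and Idh2 at 2.18 ± 0.28 (adjusted p = 2.7e-06). Of the 63 oxidative phosphorylation genes 45 shifted up against remote tissue, and of the 66 cell cycle genes 11 shifted down. Of 39 cardiomyocyte markers 31 shifted up and 0 down. The 7 fibrillar collagens gave 0 calls against remote, with a median of 0.85. Of 36 macrophage markers 5 shifted down and 0 up, and of 24 fibroblast markers 1 down and 2 up. Of the 2455 shifts called against sham, 631 (25.7%) were also called against remote in the same direction. The count of 738 was 505 with no replicate block. It was 0 when the model held the 4 groups of that comparison only, a fit that also left out the block and so the shared title numbers.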

How the data were processed

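Intensities were scaled by the authors before they were deposited: the trimmed mean of every array lay between 499.2 and 499.9. The deposited intensity values ran from 0 to 35489.2, with 4 zero values, and the tool that made them is not given in the sources used here. The platform annotation names 12488 probe sets, of which 66 are controls, 396 carry several genes, 1193 none and 10833 a single gene symbol. These cover 8251 genes, and the probe set with the highest mean stood for a gene with several. Genes were kept where 3 or more arrays reached an intensity of 108.2, the percentile 40 of every value in the table, which left 6670. An offset of 45.6, which is 0.25 of the overall median, was added before log2, which understates changes of dim genes.

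limma 3.58.1 in R 4.3.3 fitted 1 model of 23 groups to all 59 arrays (36 residual degrees of freedom), with the title number as a random block (correlation 0.148). Differences were tested two-sided with limma's moderated test and Benjamini-Hochberg adjustment over all genes, at 0.05. A called gene is one that passed. The procedure was tested on simulated data. No group of the shift shares a title number with another, so the block acts through the pooled correlation only; infarct and remote arrays of 1 time share numbers. No 2 arrays of the 12 were identical.

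Members and gene lists were chosen with earlier results of these data known. Named genes were the largest separated shifts in each direction, up to 4 members a list by adjusted p, the largest lasting and late differences at 8 weeks, and a fixed panel reported whatever the result. Of that panel Spp1, Thbs1, Thbs4, Comp, Cilp and Mmp2 were not analysed here. Promoter sequences are RefSeq, build GRCm38.p6, matched by symbol. Alternatives covered the offset, scaling, filter, probe sets, block, arrays in the fit, array weights and each array left out. Every fit of 4 groups only also left out the block. Figures were drawn with matplotlib 3.10.9 in Python 3.11.15.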

Additional observations from a re-analysis of the deposited data

Results flagged for a closer look

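The difference between infarct and sham itself differed between 1 week and 8 weeks, by a test of that difference with limma, for 2455 genes. The shift of the infarct differed from that of the remote tissue for 738 genes by the same kind of test.

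For 19 genes the difference from sham passed in opposite directions at the 2 times. Of these, Inmt had a shift of 2.68 on the log2 scale, Cpe of 1.1, Zfp91 of 1.06 and Ankrd28 of 1.05. Each was below sham on all 3 infarct arrays at 1 week and above it on all 3 at 8 weeks. The part of surviving muscle in these shifts was not tested.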

How the results depend on the processing

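The count of 2455 called shifts ran from 1659 to 2773 over the alternatives that counted genes and kept sham as control. With every probe set tested it was 2856 of 8140 probe sets, and with remote tissue as control 738 genes. Against sham it was 2447 with no replicate block, and from 1959 (without old array A) to 2773 (without C) with 1 array left out. Upward calls then ran from 930 to 1217 and downward calls from 1029 to 1556. With old array A and young array C both dropped, a setting chosen after seeing the data, 1659 shifts were called, 802 up and 857 down, and 1621 of them were among the 2455. With quantile normalization 2044 of the 2455 were called, and the upward share was 54.9% in place of 45%. The count at 1 week (4036) ran from 3722 to 4059 with 1 array left out, and that of the infarct arrays between the times (3004) from 2461 to 3097. At 8 weeks the 1409 calls became 832 with the 4 groups only, 68 with array weights and 653 without the infarct arrays of highest number. They ran from 624 (without old array C) to 1769 (without A) with 1 array left out. In sham the 705 calls became 416 with quantile normalization, 1795 with array weights and 453 with the lower sham array added, and ran from 160 (without sham array C at 8 weeks) to 818 (without old array C). The 738 shifts against remote became 505 with no replicate block, 370 with array weights and 263 without old array A and young array C. They became 0 with the 4 groups only and no block, where limma gave 1041 genes at an unadjusted p under 0.05. They ran from 333 to 962 with 1 array left out, lowest without young array C. The array weights were estimated by an iteration that stopped before it converged. Of the genes named, Fmod reversed, to 1.9, without old array A and young array C. Of 79 other probe sets of the named genes, 27 gave the same call and 47 lost it, 32 of these being dim on average; Zfp91 was called the other way on 1. The causes were not tested. The 3 arrays a group and the spread of the old infarct arrays limit what can be called at 8 weeks.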
